A study of Homo sapiens with 12 samples.

Results

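The 44 genes described here encode the machinery that copies chromosomal DNA and the enzymes that supply its nucleotides, and they were taken by gene symbol from the 25702 genes of the count table. They comprise 11 genes of origin licensing, 6 of helicase activation, 7 of the polymerases and primase, 5 of the sliding clamp and clamp loader, 3 of Okazaki fragment processing, 5 of nucleotide supply, 3 of chromatin assembly behind the fork and 4 regulators of entry into S phase. The cells were WI-38, a line of normal human lung fibroblasts, and each library came from the total RNA of 1 culture flask. There were 4 conditions with 3 flasks each. D1 flasks were grown to confluence, given fresh medium without TGF-β and harvested on day 1, and D1+ TGF-β flasks received TGF-β with that change of medium. For the day 20 conditions, 1 untreated and 1 treated flask were each used to seed fresh flasks, which were kept without TGF-β (D20) or with it (D20+ TGF-β) and were nearly confluent at harvest, so that the D20 flasks of a treatment share their founding flask. With 1 founding flask per treatment, TGF-β and founding flask cannot be told apart at day 20. The labels give passages 2 to 3 for day 1 and 5 to 6 for day 20, and time in culture and passage therefore cannot be told apart. The study identified the treated day 20 cells as myofibroblasts, the contractile, matrix-producing form that fibroblasts take under TGF-β. Its evidence was protein: smooth muscle actin was raised on western blots at day 20 and stained most treated cells, but none after 1 day of treatment.

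Before S phase, the origin recognition complex, CDC6 and CDT1 load the MCM2 to MCM7 helicase onto origins, and geminin blocks further loading once replication has begun. CDC45 and the GINS complex switch the helicase on, DNA polymerase α with primase starts each new strand, and polymerases δ and ε extend it while held on the DNA by the PCNA clamp. Most of these genes are transcribed around the G1/S boundary under E2F transcription factors, which the retinoblastoma protein RB1 holds back in resting cells. Fibroblasts in a confluent layer leave the cell cycle, and TGF-β is best known for arresting epithelial cells in G1 while its effect on the growth of fibroblasts depends on the setting.

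Library totals ran from 8674488 to 18286197 counts. Levels are given as cpm, counts scaled to the TMM-adjusted library total, and a gene was tested if it reached 10 cpm in 6 or more of the 12 libraries, which left 9490 genes. Of the 44 members, 35 passed that filter, and ORC1, CDC45, GINS3, PRIM1, POLE2, DNA2, E2F2, CCNE1 and CCNE2 did not. A gene was called higher or lower at an adjusted p under 0.01 in edgeR's quasi-likelihood test, and fold changes are log2 values with their standard error. D20+ TGF-β replicate 3 and D1 replicate 2 stood apart from the other flasks of their conditions, with a chi-square per degree of freedom of 14.6 to 26.8 against them and 1.57 to 9.81 between all other pairs of replicates. The first of these had the highest level of its condition for 44 of the 44 members and 40.0% of all tested genes. All 14 fibroblast markers passed the filter, and their summed level ranged from 26747 to 33083 cpm at D1, from 48328 to 49549 cpm with TGF-β at D1, from 29980.0 to 32547 cpm at D20 and from 50979 to 59203 cpm at D20+ TGF-β. Singly they were split. With TGF-β, 3 were called higher and 2 lower at D1 (6.89% and 6.5% of all tested genes). At D20, 2 were called higher and 3 lower with TGF-β (12.8% and 14.7%), with a median log2 fold change of −0.09. From D1 to D20, 7 were called higher and 1 lower (18.9% and 17.6%), with a median of 0.39. EPCAM, CDH1, KRT5, PECAM1, CDH5, PTPRC and CD3E, which define epithelial, endothelial and blood cells, all had mean levels under 1 cpm in every condition. Of the full lists, 2 of 8 epithelial and 1 of 7 leukocyte markers passed the filter. The summed epithelial level averaged 30.1 cpm at D1 and 27.2 cpm at D20, and the summed leukocyte level 57.1 and 57.4 cpm. With TGF-β they were 22.3 and 21.2 cpm, and 40.4 and 43.8 cpm. The tested leukocyte marker was called lower with TGF-β at D1, at −0.49 (log2). Of the 2 tested epithelial markers, 1 was called higher from D1 to D20 and 0 lower. Neither list had a call with TGF-β at D20. ACTA2, the smooth muscle actin of myofibroblasts, averaged 183 ± 52.9 cpm in untreated and 768 ± 79.4 cpm in treated flasks on day 1 and 287 ± 10.1 and 315 ± 37.4 cpm on day 20 (SD, n = 3). It was not called with TGF-β at day 20, with a log2 fold change of 0.13 ± 0.17 (adjusted p = 0.55). These are RNA levels, whereas the study's marker was the protein. Of 7 myofibroblast markers, 6 were tested. In D20+ TGF-β vs D20, 1 of them was called higher and 3 lower, where 12.8% and 14.7% of all tested genes were, with log2 fold changes from −2.24 to 3.32. In D1+ TGF-β vs D1, 5 of the 6 were called higher and 0 lower, against 6.89% and 6.5%. Between the treated flasks of day 20 and day 1, 1 was called higher and 5 lower, against 17.2% and 17.7%. The summed level of the 7 was 1952 ± 51.8 cpm at D20 and 4120 ± 430 cpm at D20+ TGF-β. TEK alone of 6 endothelial markers passed the filter, and the summed level of the 6 ran from 46.3 to 80.4 cpm at D1 and from 223 to 251 cpm at D20. With TGF-β it ran from 34.96 to 40.9 cpm at D1 and was 141, 152 and 78.2 cpm in the D20+ TGF-β flasks, lowest in replicate 3, and TEK had a log2 fold change of −0.97 ± 0.22 (adjusted p = 0.0033) with TGF-β at D20, a call lost without D20 replicate 2 or D20 replicate 3. Whether these markers have a part in the results was not tested.

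Promoter sequences were compared because most of these genes are known E2F targets. RefSeq promoters, 250 bases before to 50 after each start, were given for 39 of the 44 genes, not for MCM4, MCM5, GINS4, DNA2 and CCNE2, and were searched on both strands for the E2F words TTTCCCGC, TTTCGCGC, TTTGCCGC and TTTGGCGC, with overlapping matches counted. A word was present in 22 of the 39 genes (56.4%), against 549 of the 7838 tested genes with a promoter (7.0%). Over the 54 promoters of the members there were 31 such words, 20 of them starting within the 100 bases before the start, with a site counted again where promoters of a gene overlap. The stretches below are shown because they hold these words close to the start of genes from several steps of replication. Coordinates are from an exact match of the RefSeq sequence to GRCh37, each stretch is read 5′ to 3′ toward the gene, and capitals mark the E2F words. They run from base −100 to −1 for MCM6, a helicase subunit, CDT1, a licensing factor, TYMS, thymidylate synthase, and E2F1, and to base −5 for PCNA.
MCM6 (chr2:136634014-136634113, minus strand): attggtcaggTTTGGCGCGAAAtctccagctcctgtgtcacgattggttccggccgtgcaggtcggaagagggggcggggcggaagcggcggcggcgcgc
CDT1 (chr16:88870097-88870196, plus strand): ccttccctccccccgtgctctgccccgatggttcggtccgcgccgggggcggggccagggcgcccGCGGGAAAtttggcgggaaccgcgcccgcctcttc
PCNA (chr20:5107273-5107368, minus strand): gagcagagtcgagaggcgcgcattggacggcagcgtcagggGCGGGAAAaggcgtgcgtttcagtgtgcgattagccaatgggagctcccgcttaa
TYMS (chr18:657553-657652, plus strand): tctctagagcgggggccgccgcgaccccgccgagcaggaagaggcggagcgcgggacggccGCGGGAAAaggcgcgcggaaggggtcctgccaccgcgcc
E2F1 (chr20:32274192-32274291, minus strand): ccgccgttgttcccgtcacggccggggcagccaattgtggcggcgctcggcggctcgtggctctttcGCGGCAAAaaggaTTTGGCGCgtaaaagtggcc

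For MCM7 and for DUT, the dUTPase, 30 bases around the words are shown. RRM2, the small subunit of ribonucleotide reductase, held no E2F word in its RefSeq promoters, and capitals in its last 100 bases mark a pair of CCAAT boxes instead.
MCM7 (chr7:99699021-99699050, minus strand): ccggtcacgtggggggcgacgTTTCGCGCc
DUT (chr15:48624349-48624378, plus strand): ctgGCGGGAAAtttcggtTTTGGCGCgctc
RRM2 (chr2:10262766-10262865, plus strand): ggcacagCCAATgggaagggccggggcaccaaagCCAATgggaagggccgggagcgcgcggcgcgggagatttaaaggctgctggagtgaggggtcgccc
In MCM6 the capitals are overlapping words on opposite strands, while DUT and E2F1 each hold 2 separate words. A match shows only that these letters are present in the window.

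Without TGF-β, the replication genes were lower at day 20 than at day 1, with CCNE1 as the exception. All 35 tested members fell from D1 to D20, where 17.6% of all tested genes were called lower, and the 3 D20 flasks lay below the 3 D1 flasks for each of the 35, against 26.2% of all tested genes. CDT1, MCM10, GINS2, RFC4, CHAF1B and E2F1 were under 10 cpm in every day 20 flask and so passed the filter only through their day 1 levels. These 6 had to be lower at day 20, and the counts over the 35 are therefore a description. The other 29 tested members were all called lower too. Of these, ORC6, CDC6, GMNN, GINS1, POLA1, POLD1, RFC3 and RFC5 were under 10 cpm in every D20 flask. They also needed their day 1 levels to pass, so the count over the 29 is a description as well. In a fit without the filter, 43 of all 44 members were called lower, where 12.0% of the genes of that fit were. The median log2 fold change of the 35 was −1.56, with a range from −3.52 for MCM10 to −0.39 for PRIM2, and the median of all tested genes was 0.01. In whole-flask RNA, fewer cells in S phase and less of these transcripts per cell cannot be told apart. One day of TGF-β left this group near its D1 level. Only TYMS was called, and lower, in D1+ TGF-β vs D1, where 6.89% of all tested genes were called higher and 6.5% lower, and the median of the 35 was 0.07.

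At day 20, flasks kept in TGF-β had higher levels of part of the group than flasks kept without it. In D20+ TGF-β vs D20, 12 of the 35 members were called higher and 0 lower, where 12.8% of all tested genes were called higher and 14.7% lower, and the median log2 fold change was 0.49 against 0.01 over all tested genes. Those called were CDC6, CDT1, GMNN, MCM2, MCM7, MCM10, POLA1, POLD1, FEN1, RRM2, TK1 and DUT. The 3 treated flasks lay above the 3 untreated ones for 23 of the 35, against 28.7% of all tested genes, and 0 had all treated flasks below the untreated ones, against 29.7%. This comparison depended on single flasks. Without D20+ TGF-β replicate 3, 8 members were called and the median was 0.26, and without D20 replicate 2 or D20 replicate 3, 6 were called in each case. CDC6, FEN1, MCM2 and MCM7 passed the threshold in every fit that was run, whereas the others named lost their call in at least 1 of them, with adjusted p of at most 0.030 there.

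The treated day 20 flasks still lay far below those treated for 1 day. Between the treated flasks of day 20 and day 1, 33 of the 35 members fell, where 17.7% of all tested genes were called lower, with a median log2 fold change of −1.07 (0 were called higher, against 17.2% of all tested genes). The 6 genes under 10 cpm in every day 20 flask, which passed the filter only through their day 1 levels, are among the 33. So are the other members under 10 cpm in every D20 flask. The exceptions were LIG1, at −0.51 ± 0.15 (adjusted p = 0.011), and DUT, at 0.13 ± 0.12 (adjusted p = 0.38). When the response to TGF-β at day 20 was compared with that at day 1 by an interaction term, TYMS, MCM7 and MCM2 had a higher response at day 20 and 0 members a lower one, where 4.51% of all tested genes were called higher and 5.87% lower. The mean level was lowest at D20 for 41 of all 44 members, and at D20+ TGF-β for PRIM2, CCNE1 and CCNE2.

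**Figure D1:**
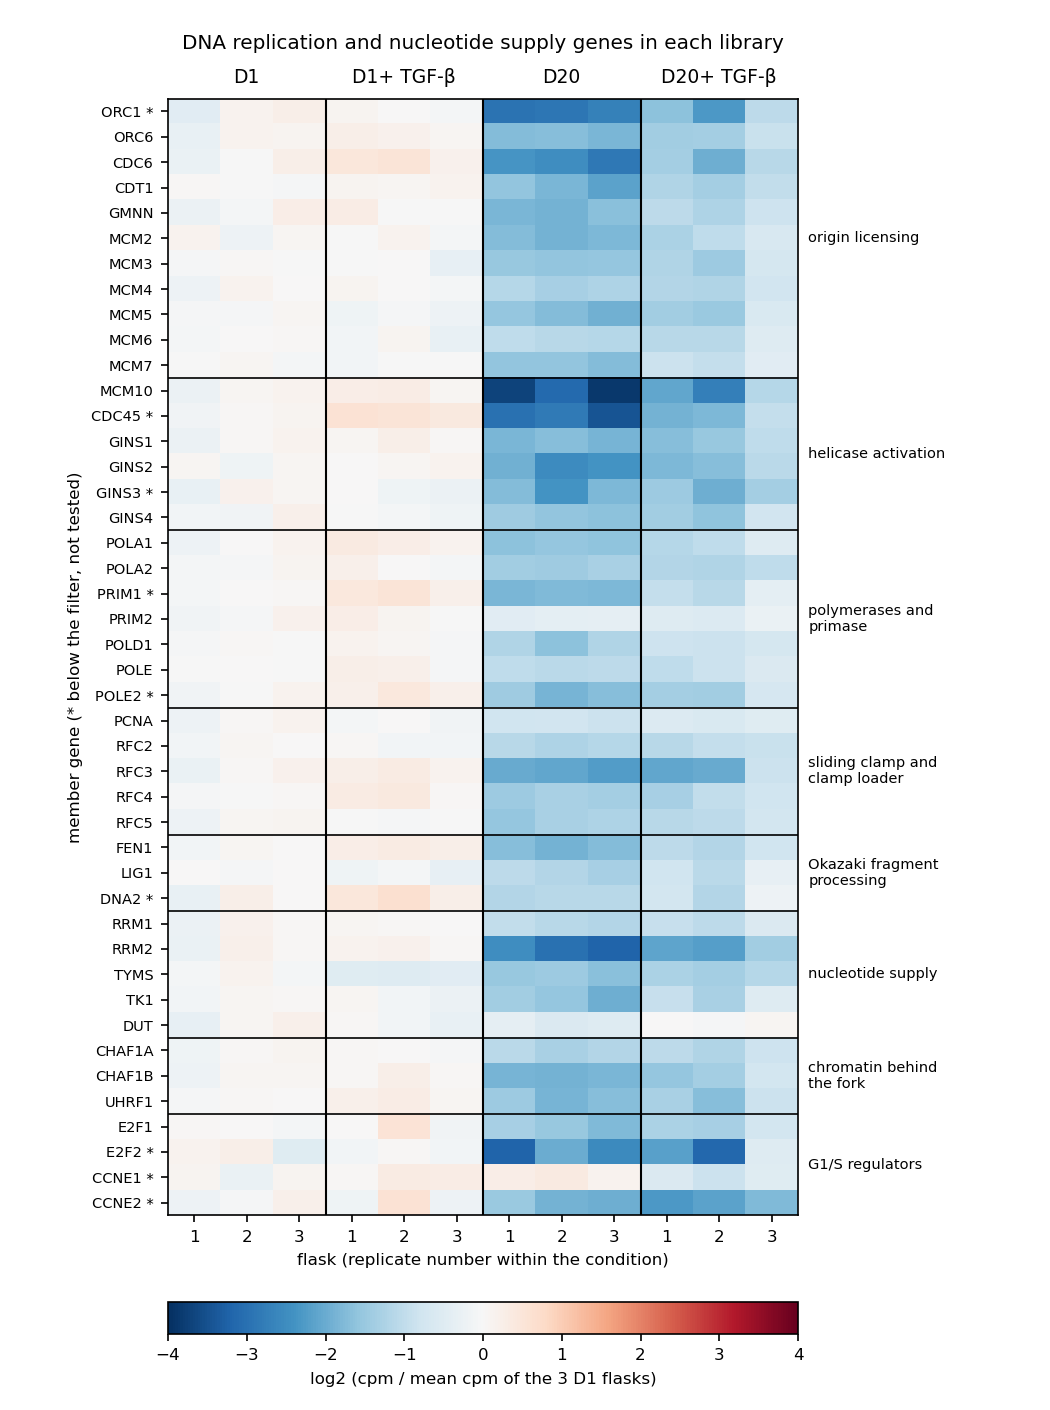
Level of each of the 44 member genes (rows, grouped by their role) in each of the 12 libraries (columns, 3 flasks per condition), as the log2 of its cpm over the mean cpm of the 3 D1 flasks. Blue marks levels below that mean and red levels above it: nearly all rows are palest at day 1 and bluest at D20, D20+ TGF-β replicate 3 is the palest flask of its condition, and CCNE1, near the bottom, does not follow the others.

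**Figure D2:**
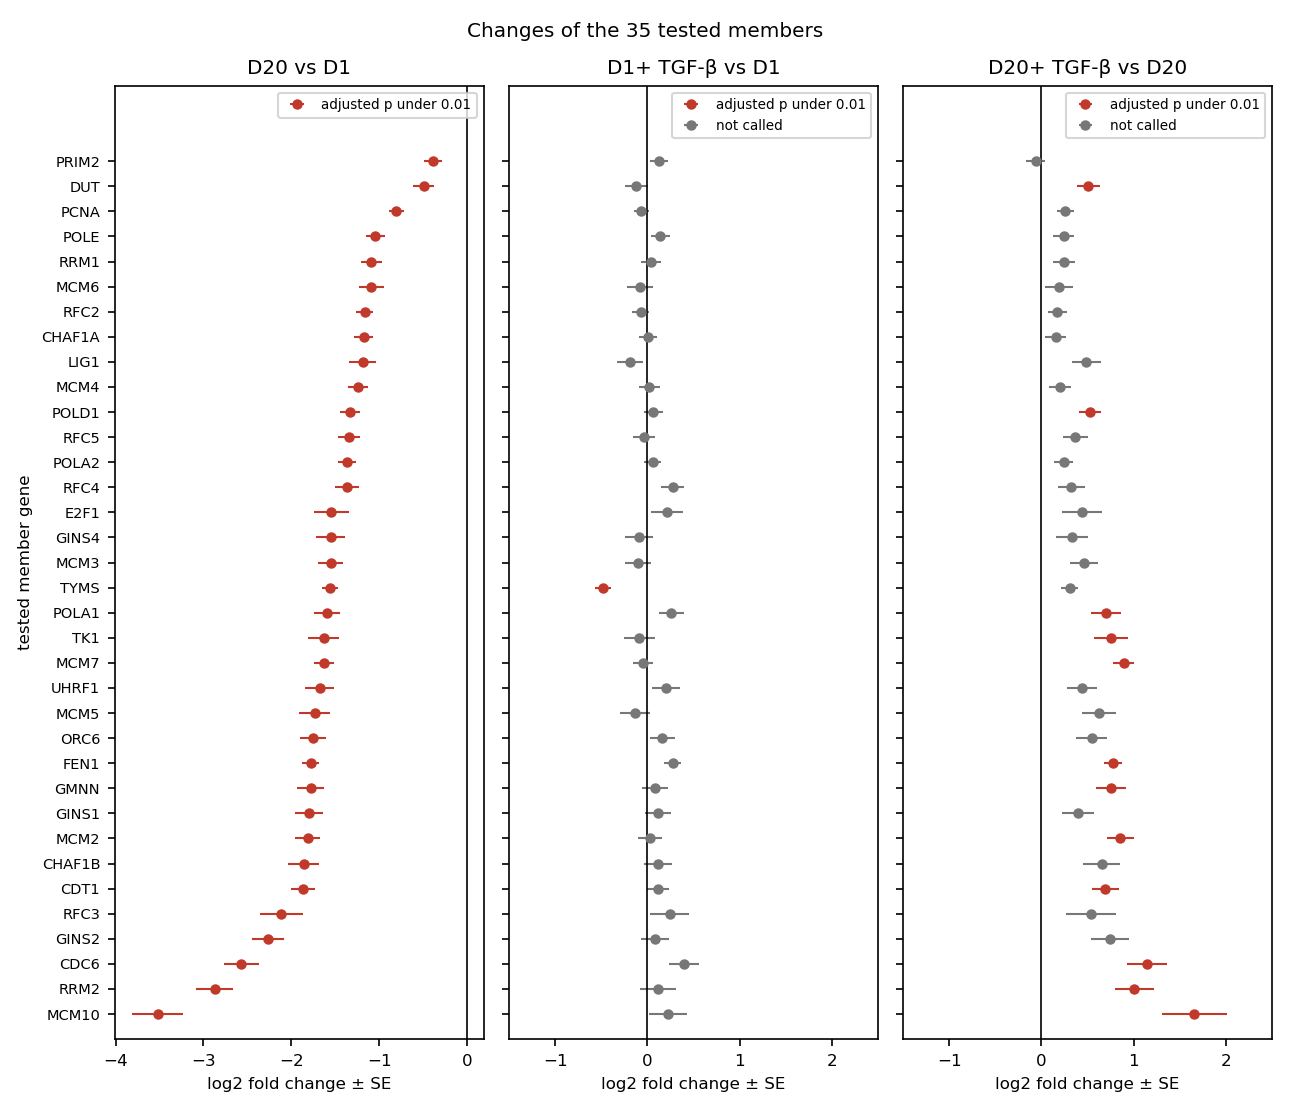
Log2 fold change with its standard error for the 35 tested members in 3 comparisons, ordered by the change from D1 to D20, with red points for an adjusted p under 0.01. All 35 points are red and below 0 in D20 vs D1, TYMS alone is red in D1+ TGF-β vs D1, and 12 are red and above 0 in D20+ TGF-β vs D20.

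Origin licensing held the largest number of members, with 10 of its 11 tested. All 10 fell from D1 to D20, where 17.6% of all tested genes were called lower. In D20+ TGF-β vs D20, 5 were called higher, against 12.8% of all tested genes. CDC6, the ATPase that loads the helicase with CDT1, stood at 23.03, 27.6 and 32.7 cpm in the D1 flasks, 38.3, 39.5 and 31.5 cpm with TGF-β at D1, 5.43, 4.93 and 3.86 cpm at D20 and 10.7, 7.19 and 12.8 cpm at D20+ TGF-β. The D20 flasks were the lowest throughout, the treated D20 flasks lay between them and day 1, and the D1 and D1+ TGF-β flasks overlapped. Its log2 fold change was −2.57 ± 0.20 (adjusted p = 4.1e-07) in D20 vs D1 and 1.14 ± 0.22 (adjusted p = 9.2e-04) in D20+ TGF-β vs D20. CDT1, the loading partner of CDC6, and GMNN, the geminin that binds and inhibits CDT1, moved in the same direction as each other. From D20 to D20+ TGF-β, CDT1 went from 3.80 ± 0.750 to 6.04 ± 0.781 cpm, a log2 fold change of 0.69 ± 0.15 (adjusted p = 0.0023), and GMNN went from 7.66 ± 0.637 to 12.95 ± 1.87 cpm, one of 0.75 ± 0.16 (adjusted p = 0.0023). ORC6, a small subunit of the origin recognition complex, fell by 1.75 from D1 to D20 on the log2 scale and was not called with TGF-β at D20, at 0.54 ± 0.16 (adjusted p = 0.017).

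The MCM2 to MCM7 proteins form 1 ring with a single copy of each. Of the 6 transcripts 2, MCM2 and MCM7, were called higher with TGF-β at D20, where 12.8% of all tested genes were. MCM7 stood at 105, 113 and 101 cpm in the D1 flasks, 99.5, 106 and 105 cpm with TGF-β at D1, 36.1, 35.4 and 32.01 cpm at D20 and 58.6, 54.9 and 78.4 cpm at D20+ TGF-β. Its day 1 flasks were alike with and without TGF-β, and every treated D20 flask lay well above the untreated ones, replicate 3 highest. The log2 fold change of MCM7 was −1.63 ± 0.11 (adjusted p = 1.8e-07) from D1 to D20, 0.89 ± 0.11 (adjusted p = 3.9e-05) with TGF-β at D20 and −0.04 ± 0.11 (adjusted p = 0.8) with TGF-β at D1, and the difference of the responses was 0.94 ± 0.16 (adjusted p = 0.0011). MCM2 was measured at 41.6, 32.8 and 39.8 cpm in the D1 flasks, 37.7, 41.6 and 36.3 cpm with TGF-β at D1, 11.3, 10.2 and 10.9 cpm at D20 and 16.01, 19.01 and 24.3 cpm at D20+ TGF-β. It followed the same pattern, with no overlap between treated and untreated D20 flasks. MCM2 changed by 0.86 ± 0.15 (adjusted p = 4.5e-04) with TGF-β at D20, and its difference of responses was 0.83 ± 0.20 (adjusted p = 0.009), a call that was lost when any 1 of 10 of the 12 flasks was left out, with adjusted p of 0.012 to 0.028, and kept without D1 replicate 2 or D20+ TGF-β replicate 1.

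MCM4 and MCM6 were not called with TGF-β at D20. MCM4 had 78.4, 99.97 and 91.4 cpm in the D1 flasks, 97.4, 91.4 and 85.3 cpm with TGF-β at D1, 40.5, 35.97 and 37.8 cpm at D20 and 40.1, 38.7 and 52.4 cpm at D20+ TGF-β. Treated and untreated D20 flasks overlapped, with replicate 3 of the treated flasks well above the other two. MCM6 was at 44.5, 47.8 and 48.4 cpm in the D1 flasks, 43.7, 50.8 and 37.8 cpm with TGF-β at D1, 23.1, 21.6 and 21.5 cpm at D20 and 21.6, 21.7 and 32.6 cpm at D20+ TGF-β. Here too only that flask stood above the untreated D20 flasks by more than their spread. Their log2 fold changes in D20+ TGF-β vs D20 were 0.20 ± 0.12 (adjusted p = 0.2) and 0.19 ± 0.15 (adjusted p = 0.33), against −1.24 ± 0.12 (adjusted p = 1.7e-06) and −1.09 ± 0.14 (adjusted p = 3.4e-05) in D20 vs D1.

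MCM3 and MCM5 had no overlap of flasks but were not called. MCM3 was at 56.02, 59.8 and 57.7 cpm in the D1 flasks, 56.7, 58.3 and 46.6 cpm with TGF-β at D1, 20.1, 19.3 and 19.8 cpm at D20 and 25.04, 20.96 and 35.4 cpm at D20+ TGF-β. MCM5 had 43.4, 43.2 and 47.4 cpm in the D1 flasks, 39.5, 42.9 and 39.1 cpm with TGF-β at D1, 15.2, 13.4 and 11.9 cpm at D20 and 17.1, 16.1 and 29.3 cpm at D20+ TGF-β. Replicate 3 of the treated D20 flasks was the highest of its condition in both, well above the other flasks. The fit gave 0.46 ± 0.15 (adjusted p = 0.026) for MCM3 and 0.62 ± 0.18 (adjusted p = 0.015) for MCM5, neither of them called, after falls of 1.55 and 1.73 from D1 to D20 on the log2 scale. Per kilobase of the reference transcript, MCM7 had the highest level of the 6 subunits in 12 of the 12 libraries, with 43.2 ± 2.42 cpm per kb at D1, and MCM2 had the lowest in 9 of them, with 11.1 ± 1.35 cpm per kb at D1. The highest over the lowest subunit was 3.98 ± 0.708 at D1 and 4.79 ± 0.304 at D20+ TGF-β (SD, n = 3), an untested difference.

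Among the genes of helicase activation, 4 of 6 were tested. All 4 fell from D1 to D20, where 17.6% of all tested genes were called lower. MCM10 alone was called higher with TGF-β at D20, against 12.8% of all tested genes. MCM10, which helps to activate the loaded helicase and bring in polymerase α, stood at 12.9, 15.8 and 16.7 cpm in the D1 flasks, 18.3, 18.5 and 16.1 cpm with TGF-β at D1, 1.16, 1.75 and 1.04 cpm at D20 and 3.54, 2.26 and 6.79 cpm at D20+ TGF-β. It had the deepest fall of the 35 tested members, and its treated D20 flasks, though above the untreated ones, were far apart, with replicate 3 the highest. The log2 fold change was −3.52 ± 0.30 (adjusted p = 6.9e-07) in D20 vs D1 and 1.66 ± 0.35 (adjusted p = 0.0021) in D20+ TGF-β vs D20. GINS4, a subunit of the GINS complex, stood at 40.6, 39.6 and 49.9 cpm in the D1 flasks, 42.9, 41 and 38.2 cpm with TGF-β at D1, 16.1, 14.4 and 14.01 cpm at D20 and 16.6, 14.3 and 25.2 cpm at D20+ TGF-β. Untreated and treated D20 flasks overlapped, with replicate 3 again highest. GINS4 changed by −1.55 ± 0.16 (adjusted p = 5.0e-06) from D1 to D20 and by 0.33 ± 0.17 (adjusted p = 0.14) with TGF-β at D20. GINS1 and GINS2, in the same complex, had log2 fold changes of −1.80 and −2.27 in D20 vs D1 and of 0.40 (adjusted p = 0.079) and 0.74 (adjusted p = 0.012) in D20+ TGF-β vs D20. GINS2 is overlapped by exons of GSE1 on the opposite strand, and it is not known whether the counting used strand.

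Of the polymerase and primase genes, 5 of 7 were tested. All 5 fell from D1 to D20, where 17.6% of all tested genes were called lower. POLA1 and POLD1 were called higher with TGF-β at D20, against 12.8% of all tested genes. POLA1, the catalytic subunit of polymerase α, had 16.4, 19.1 and 20.8 cpm in the D1 flasks, 24.1, 22.5 and 20.7 cpm with TGF-β at D1, 6.01, 6.45 and 6.18 cpm at D20 and 8.46, 9.25 and 13 cpm at D20+ TGF-β. Treated D20 flasks lay above untreated ones without overlap. POLA1 had a log2 fold change of −1.59 ± 0.15 (adjusted p = 2.0e-06) in D20 vs D1 and 0.70 ± 0.16 (adjusted p = 0.0035) in D20+ TGF-β vs D20. POLD1, the catalytic subunit of the lagging-strand polymerase δ, was at 20.2, 21.7 and 20.9 cpm in the D1 flasks, 23.2, 22.1 and 20.4 cpm with TGF-β at D1, 9.02, 6.75 and 9.12 cpm at D20 and 11.8, 11.4 and 12.8 cpm at D20+ TGF-β. The treated D20 flasks were close to each other and clear of the untreated ones. POLD1 changed by −1.33 ± 0.11 (adjusted p = 8.0e-07) and 0.53 ± 0.12 (adjusted p = 0.0031) in the same comparisons. Neither gene was called without D20+ TGF-β replicate 3 or without D20 replicate 2, nor was POLA1 without D20 replicate 1 or 3.

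PRIM2, the large subunit of primase, fell least of the tested members. PRIM2 stood at 38.7, 41.1 and 47.9 cpm in the D1 flasks, 50.9, 45.8 and 42.5 cpm with TGF-β at D1, 31.04, 32.7 and 33.5 cpm at D20 and 29.6, 28.9 and 35.1 cpm at D20+ TGF-β. The D20 flasks lay below the D1 flasks by a small margin, and the treated D20 flasks lay on both sides of the untreated ones. Its change in D20 vs D1 was −0.39 ± 0.10 (adjusted p = 0.0061), and it was the 1 tested member with a negative log2 fold change with TGF-β at D20, −0.06 ± 0.10 (adjusted p = 0.67). PRIM2 is overlapped on its own strand by the annotated copy PRIM2BP, so its level is uncertain. The fall of PRIM2 was not called without D1 replicate 3 or without any 1 of the D20 flasks. POLA2, the second subunit of polymerase α, and POLE, the catalytic subunit of the leading-strand polymerase ε, changed by −1.36 and −1.04 from D1 to D20, and by 0.24 (adjusted p = 0.075) and 0.24 (adjusted p = 0.1) with TGF-β at D20.

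All 5 genes of the clamp and its loader were tested, and all 5 fell from D1 to D20, where 17.6% of all tested genes were called lower. In D20+ TGF-β vs D20, 0 were called, where 12.8% of all tested genes were called higher. All 5 estimates were positive there, with a median of 0.32. PCNA, the ring that tethers the polymerases, had 79.2, 95.9 and 100.3 cpm in the D1 flasks, 86.6, 93.4 and 82.9 cpm with TGF-β at D1, 53.1, 53.9 and 50.8 cpm at D20 and 63.5, 60.2 and 65.1 cpm at D20+ TGF-β. Treated D20 flasks lay above untreated ones by a small and even margin, well below day 1. Its log2 fold change was −0.81 ± 0.09 (adjusted p = 5.7e-06) in D20 vs D1, a smaller fall than in 32 of the other tested members, and 0.26 ± 0.09 (adjusted p = 0.027) in D20+ TGF-β vs D20. RFC3, a subunit of the clamp loader, was measured at 20.96, 26.5 and 28.9 cpm in the D1 flasks, 29.9, 32.04 and 28.1 cpm with TGF-β at D1, 6.30, 5.995 and 5.45 cpm at D20 and 6.002, 6.27 and 13.96 cpm at D20+ TGF-β. At D20 with TGF-β, replicates 1 and 2 were at the untreated level and replicate 3 was well above both. The fit gave −2.11 ± 0.25 (adjusted p = 1.2e-05) in D20 vs D1 and 0.54 ± 0.27 (adjusted p = 0.13) in D20+ TGF-β vs D20. RFC5, another loader subunit, stood at 15.8, 19.2 and 19.8 cpm in the D1 flasks, 17.97, 17.8 and 17.9 cpm with TGF-β at D1, 6.21, 7.44 and 7.83 cpm at D20 and 8.40, 8.84 and 10.9 cpm at D20+ TGF-β. The treated D20 flasks were all above the untreated ones, and RFC5 changed by −1.34 ± 0.13 (adjusted p = 2.0e-06) and 0.37 ± 0.14 (adjusted p = 0.046) in the same comparisons. RFC2 and RFC4 fell by 1.16 and 1.37 from D1 to D20 on the log2 scale and had 0.17 (adjusted p = 0.2) and 0.32 (adjusted p = 0.097) with TGF-β at D20.

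Okazaki fragments are trimmed by FEN1 and DNA2 and sealed by LIG1. FEN1, the flap endonuclease, stood at 45.3, 51.1 and 49.4 cpm in the D1 flasks, 58.5, 60.9 and 56.8 cpm with TGF-β at D1, 14.9, 13.1 and 14.5 cpm at D20 and 23.4, 21.8 and 27.7 cpm at D20+ TGF-β. Neither the day 1 nor the day 20 flasks overlapped between treated and untreated, with the treated ones higher on both days. The log2 fold change of FEN1 was −1.78 ± 0.10 (adjusted p = 3.5e-08) in D20 vs D1, 0.78 ± 0.10 (adjusted p = 4.6e-05) in D20+ TGF-β vs D20 and 0.27 ± 0.09 (adjusted p = 0.037) in D1+ TGF-β vs D1, the last not called. The difference of its responses was 0.50 ± 0.13 (adjusted p = 0.017), also not called. FEN1 is overlapped on its own strand by annotated exons of FADS2 and has 1 annotated copy. LIG1, DNA ligase 1, had 25.9, 24.7 and 26.04 cpm in the D1 flasks, 22.6, 23.9 and 20.4 cpm with TGF-β at D1, 12.3, 11.4 and 10.1 cpm at D20 and 14.7, 12.1 and 20.4 cpm at D20+ TGF-β. Treated D20 flasks spread from the untreated level to just under that of D1+ TGF-β. LIG1 fell by 1.19 ± 0.15 (adjusted p = 2.3e-05) on the log2 scale in D20 vs D1 and had 0.49 ± 0.15 (adjusted p = 0.022) in D20+ TGF-β vs D20.

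Within nucleotide supply the falls ranged from that of RRM2, the second deepest of the 35 tested members, to that of DUT, the second smallest. All 5 were tested, and all 5 fell from D1 to D20, where 17.6% of all tested genes were called lower. RRM2, TK1 and DUT were called higher with TGF-β at D20, against 12.8% of all tested genes. RRM2, the small subunit of ribonucleotide reductase, which makes deoxyribonucleotides in S phase, stood at 143, 199 and 179 cpm in the D1 flasks, 189, 196 and 178 cpm with TGF-β at D1, 31.2, 21.9 and 18.7 cpm at D20 and 40.2, 37.7 and 65.5 cpm at D20+ TGF-β. The D20 flasks held a small fraction of the day 1 level, and all 3 treated D20 flasks were above them. RRM2 had a log2 fold change of −2.87 ± 0.21 (adjusted p = 3.1e-07) in D20 vs D1 and 1.01 ± 0.21 (adjusted p = 0.0021) in D20+ TGF-β vs D20. RRM1, the large subunit of the same enzyme, had 137, 180.1 and 166 cpm in the D1 flasks, 169, 168 and 162 cpm with TGF-β at D1, 81.3, 75.4 and 71.5 cpm at D20 and 85.1, 78.4 and 107 cpm at D20+ TGF-β. It fell far less than RRM2, and its treated and untreated D20 flasks overlapped. The values for RRM1 were −1.09 ± 0.12 (adjusted p = 5.5e-06) and 0.25 ± 0.12 (adjusted p = 0.11). The ratio of RRM2 cpm to RRM1 cpm within a library was 1.04, 1.10 and 1.07 at D1, 1.12, 1.17 and 1.10 at D1+ TGF-β, 0.384, 0.291 and 0.261 at D20 and 0.472, 0.481 and 0.612 at D20+ TGF-β. The ratio did not overlap between D20 and either D1 or D20+ TGF-β, and with 3 flasks against 3 an exact test could not give a p below 0.1. RRM2 has 3 annotated copies, and RRM1 is overlapped by the antisense gene RRM1-AS1.

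TYMS, thymidylate synthase, was the member that TGF-β moved at day 1. TYMS stood at 63.7, 74.5 and 63.4 cpm in the D1 flasks, 48.5, 47.1 and 49.4 cpm with TGF-β at D1, 23.3, 24.4 and 20.99 cpm at D20 and 28.1, 26.3 and 30.5 cpm at D20+ TGF-β. Every D1+ TGF-β flask was below every D1 flask, whereas at day 20 every treated flask was above every untreated one. The log2 fold change was −0.48 ± 0.09 (adjusted p = 0.0013) in D1+ TGF-β vs D1, 0.31 ± 0.09 (adjusted p = 0.016) in D20+ TGF-β vs D20 and −1.56 ± 0.09 (adjusted p = 6.3e-08) in D20 vs D1, of which the second was not called. The difference of the responses was 0.79 ± 0.13 (adjusted p = 8.7e-04). Without D1+ TGF-β replicate 2, the fall of TYMS at day 1 had an adjusted p of 0.011. TYMS is overlapped on the opposite strand by ENOSF1 and TYMSOS and has 2 annotated copies.

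DUT removes dUTP and so makes the precursor for TYMS. DUT was at 36.5, 48.03 and 52.4 cpm in the D1 flasks, 47.04, 42.2 and 37.1 cpm with TGF-β at D1, 35.3, 30.5 and 31.9 cpm at D20 and 45.8, 44.5 and 48.3 cpm at D20+ TGF-β. The untreated D20 flasks lay below all others, and the treated D20 flasks lay within the range of the D1 flasks. Its log2 fold change was −0.49 ± 0.12 (adjusted p = 0.0044) in D20 vs D1 and 0.51 ± 0.12 (adjusted p = 0.0047) in D20+ TGF-β vs D20. The second call was lost when any 1 of the D20+ TGF-β flasks, D20 replicate 2 or D20 replicate 3 was left out, with an adjusted p of at most 0.025. The first was lost without D1 replicate 3, D20 replicate 2 or D20 replicate 3. DUT has 8 annotated copies, more than any other member, so its reads may be shared with them. TK1, the S phase thymidine kinase of the salvage route, averaged 42.8 ± 2.96 cpm in the D1 flasks, 14 ± 2.68 cpm in the D20 flasks and 23.3 ± 6.51 cpm in the treated D20 flasks. Its log2 fold change was −1.63 ± 0.18 (adjusted p = 6.4e-06) in D20 vs D1 and 0.75 ± 0.18 (adjusted p = 0.0048) in D20+ TGF-β vs D20.

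**Figure D3:**
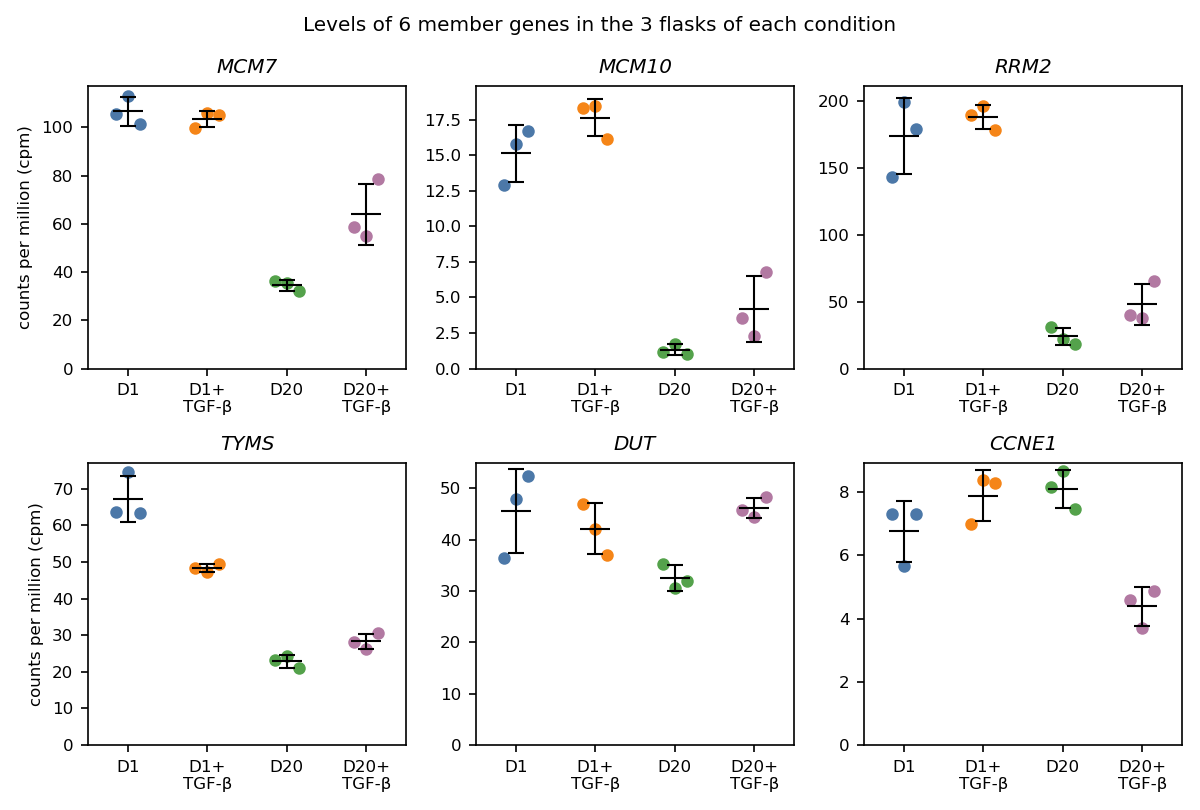
Levels in cpm (linear axes from 0) of MCM7, MCM10, RRM2, TYMS, DUT and CCNE1 in the 3 flasks of each condition (points), with the mean and SD (black bars). MCM7, MCM10 and RRM2 are lowest at D20 and partly raised at D20+ TGF-β, TYMS is lower with TGF-β at D1, DUT at D20+ TGF-β is at its D1 level, and CCNE1 is lowest at D20+ TGF-β.

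Behind the fork, CHAF1A and CHAF1B belong to the complex that deposits new histones and UHRF1 guides maintenance of DNA methylation. All 3 fell from D1 to D20, where 17.6% of all tested genes were called lower. With TGF-β at D20, 0 were called, where 12.8% of all tested genes were called higher, and all 3 estimates were positive, with a median of 0.44. CHAF1B stood at 10.5, 12.8 and 12.8 cpm in the D1 flasks, 12.3, 14.1 and 12.3 cpm with TGF-β at D1, 3.30, 3.26 and 3.37 cpm at D20 and 4.12, 4.73 and 7.17 cpm at D20+ TGF-β. Its D20 flasks were nearly equal and the treated ones all lay above them. The log2 fold change of CHAF1B was −1.86 ± 0.18 (adjusted p = 2.2e-06) in D20 vs D1 and 0.65 ± 0.20 (adjusted p = 0.018) in D20+ TGF-β vs D20. UHRF1 had 52.8, 55.4 and 54.2 cpm in the D1 flasks, 62.3, 66.98 and 57.5 cpm with TGF-β at D1, 19.8, 14.8 and 16.5 cpm at D20 and 22.2, 16.5 and 30.02 cpm at D20+ TGF-β. Treated and untreated D20 flasks overlapped, replicate 3 being the highest of the treated ones. UHRF1 changed by −1.68 ± 0.16 (adjusted p = 2.1e-06) and 0.44 ± 0.17 (adjusted p = 0.049), and CHAF1A by −1.18 ± 0.11 (adjusted p = 1.5e-06) and 0.16 ± 0.11 (adjusted p = 0.3), in the same comparisons.

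E2F1, the transcription factor that switches on many of the genes above, was the 1 tested gene of the S phase regulators. E2F1 was measured at 12.97, 12.7 and 11.8 cpm in the D1 flasks, 12.8, 18.1 and 11.4 cpm with TGF-β at D1, 4.95, 4.40 and 3.67 cpm at D20 and 5.14, 4.93 and 7.55 cpm at D20+ TGF-β. Both sets of day 20 flasks lay below all day 1 flasks and overlapped with each other. E2F1 had a log2 fold change of −1.54 ± 0.20 (adjusted p = 2.9e-05) in D20 vs D1 and 0.44 ± 0.22 (adjusted p = 0.13) in D20+ TGF-β vs D20.

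The 9 members below the filter were read from the raw table and from an edgeR fit of all 20434 genes with a count. From D1 to D20, 8 of the 9 fell in that fit, where 12.0% of its genes were called lower, CCNE1 being the exception. ORC1, the largest subunit of the origin recognition complex, had 77 to 150 counts in the D1 flasks and 12, 16 and 23 counts in the D20 flasks, a log2 fold change of −2.91 ± 0.25 (adjusted p = 6.3e-10). CDC45, a part of the active helicase, had 112 to 165 counts at D1 and 14, 20 and 16 counts at D20, one of −3.15 ± 0.23 (adjusted p = 2.7e-11). Both were called higher with TGF-β at D20, ORC1 by 1.27 ± 0.29 (adjusted p = 0.0013) and CDC45 by 1.58 ± 0.26 (adjusted p = 3.5e-05), as was PRIM1, the catalytic subunit of primase, by 1.00 ± 0.20 (adjusted p = 4.4e-04). In that fit 8.62% of genes were called higher and 8.51% lower in D20+ TGF-β vs D20. GINS3, POLE2, DNA2, E2F2 and CCNE2 were not called there, with adjusted p of 0.066 to 0.54. E2F2 had at most 33 counts in a library.

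The cyclins E, which activate CDK2 at the G1/S boundary, were both below the filter. CCNE1 stood at 7.30, 5.65 and 7.32 cpm in the D1 flasks, 6.97, 8.39 and 8.29 cpm with TGF-β at D1, 8.15, 8.65 and 7.47 cpm at D20 and 4.57, 3.70 and 4.88 cpm at D20+ TGF-β. The D20 flasks were the highest untreated flasks, and all treated D20 flasks lay below every other flask. In the fit without a gene filter, CCNE1 changed by 0.19 ± 0.16 (adjusted p = 0.44) in D20 vs D1, not called, by −0.85 ± 0.17 (adjusted p = 3.3e-04) in D20+ TGF-β vs D20, and its difference of responses was −1.08 ± 0.24 (adjusted p = 0.0023), where 3.41% of the genes of that fit were called higher and 3.01% lower. CCNE2 had 8.76, 9.76 and 11.6 cpm in the D1 flasks, 8.98, 15.1 and 8.77 cpm with TGF-β at D1, 3.59, 2.73 and 2.57 cpm at D20 and 2.06, 2.26 and 2.96 cpm at D20+ TGF-β. It fell with the other members from D1 to D20, and the treated and untreated D20 flasks overlapped. CCNE2 changed by −1.86 ± 0.22 (adjusted p = 1.6e-07) and −0.27 ± 0.26 (adjusted p = 0.54) in the same fit. CCNE2 shares its span with INTS8 on the opposite strand.

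Other genes of the replication fork, 38 that are no members with 32 of them tested, showed calls in the same directions. In D20 vs D1 23 fell and 0 were called higher, against 17.6% and 18.9% of all tested genes, with a median of −0.76. Of the 23, at least RNASEH2A, DBF4, RECQL4, TIPIN and CLSPN were under 10 cpm in every D20 flask and needed their day 1 levels to pass. In D20+ TGF-β vs D20, 10 were called higher and 1 lower, against 12.8% and 14.7%, with a median of 0.29. The smallest adjusted p in D20+ TGF-β vs D20 belonged to SSRP1, a histone chaperone of the FACT complex, at 0.68 ± 0.07 (adjusted p = 9.2e-06). DBF4, which activates the CDC7 kinase at origins, followed at 1.19 ± 0.17 (adjusted p = 1.1e-04), as did TOP2A, which untangles sister DNA, at 1.24 ± 0.18 (adjusted p = 1.2e-04). TIMELESS, of the fork protection complex, and NASP, a histone chaperone, also rose, by 0.74 and 0.52. At day 1 only TOP1, topoisomerase I, was called, and lower, at −0.46 ± 0.08 (adjusted p = 0.0012).

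Of 28 tested genes of nucleotide synthesis outside the members, 21 fell and 3 rose from D1 to D20, against 17.6% and 18.9% of all tested genes, and with TGF-β at D20 16 were called higher and 2 lower, against 12.8% and 14.7%. At day 1, 5 of them were called higher with TGF-β and 0 lower, against 6.89% and 6.5% of all tested genes. MTHFD2, the mitochondrial enzyme that makes one-carbon units for purines and thymidylate, rose by 1.69 ± 0.14 (adjusted p = 2.3e-06) at day 1 and 1.84 ± 0.14 (adjusted p = 4.9e-07) at day 20. SHMT2, which feeds it from serine, rose by 0.63 ± 0.10 (adjusted p = 4.6e-04) and 1.23 ± 0.10 (adjusted p = 7.0e-07). UCK2, a uridine kinase, and CTPS1, CTP synthase, rose by 0.80 and 0.81 at day 1. PAICS, of purine synthesis, and MTHFD1, the cytosolic folate enzyme, rose by 0.88 and 0.65 at day 20. SAMHD1, which degrades deoxyribonucleotides in resting cells, went the other way, from 52.8 ± 1.73 cpm at D20 to 27.8 ± 3.58 cpm at D20+ TGF-β, a log2 fold change of −0.93 ± 0.09 (adjusted p = 4.3e-06), after a rise of 0.77 from D1 to D20.

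Among 25 tested genes of the RB-E2F pathway, 4 were called higher and 3 lower with TGF-β at D20, shares near the 12.8% and 14.7% of all tested genes, with a median of 0.05. CDKN2B, the CDK4 inhibitor p15 and a classical TGF-β target, averaged 19.3 ± 0.517 cpm in untreated and 42.1 ± 7.13 cpm in treated flasks on day 1 and 15.3 ± 1.28 and 82.01 ± 18.1 cpm on day 20 (SD, n = 3). It rose by 1.12 ± 0.16 (adjusted p = 2.1e-04) at day 1 and by 2.42 ± 0.16 (adjusted p = 1.2e-07) at day 20, the comparison in which 12 replication members rose as well. E2F7, a repressor among the E2F factors, rose by 0.97 ± 0.20 (adjusted p = 0.0035) and 1.83 ± 0.22 (adjusted p = 2.4e-05) on the same days (the first call was lost without D1 replicate 1, D1+ TGF-β replicate 1 or D1+ TGF-β replicate 2), and CCNA2, the S phase cyclin A, by 1.41 ± 0.20 (adjusted p = 1.1e-04) at day 20. CCND3, a D-type cyclin, and SKP2, which targets the inhibitor p27 for degradation, fell by 1.48 ± 0.16 (adjusted p = 1.1e-05) and 0.74 ± 0.10 (adjusted p = 8.9e-05) on the log2 scale at day 20. CDK6 rose by 0.94 at day 1 and had −0.08 at day 20.

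The other CDK inhibitors showed no call with TGF-β, although for CDKN2A at D20 this depended on the fit. CDKN1A, p21, rose by 0.43 ± 0.10 (adjusted p = 0.0025) from D1 to D20 and CDKN1B, p27, by 0.40 ± 0.10 (adjusted p = 0.0051), while CDKN2A had 0.25 ± 0.16 (adjusted p = 0.21). The CDKN1A call was lost without D1 replicate 3 or D20 replicate 2, and that of CDKN1B without either of these, D1 replicate 1 or D20 replicate 3. The CDKN1B call was also lost with no composition factor, with no gene filter and with only the libraries compared, with adjusted p of 0.015 to 0.022. In D20+ TGF-β vs D20 these 3 genes had −0.05, 0.05 and 0.39 (adjusted p = 0.73, 0.74 and 0.066). For CDKN2A that result depended on the fit, and it was called higher in 3 of 22 alternatives. These were the fit without D1 replicate 2 (adjusted p = 1.9e-04), only the libraries compared (8.2e-04) and the 48 lanes in limma-voom (4.2e-05). CDKN1C, CDKN2C and CDKN2D were below the filter, with mean levels at D20 of 9.01, 3.09 and 5.20 cpm.

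Mitosis genes, expressed later in the cycle, moved in the same directions. All 29 were called lower from D1 to D20, against 17.6% of all tested genes, with a median of −2.73 against −1.56 for the replication members. Their summed level was 1993 ± 394 cpm at D1 and 318 ± 43.6 cpm at D20 (SD, n = 3). Some may therefore have passed the filter only through their day 1 levels, which was not counted, and the count of falls is a description. With TGF-β at D20, 27 were called higher, against 12.8% of all tested genes, with a median of 1.44 against 0.49. By the interaction term, the response was called higher at day 20 for 25 of the 29 and for 3 of the 35 members, where 4.51% of all tested genes were, and the estimate of the difference was positive for 29 of the 29 and 34 of the 35. Without D20+ TGF-β replicate 3, 27 of the 29 were called in D20+ TGF-β vs D20 with a median of 1.20. The smallest adjusted p were those of CDC20, which activates the anaphase-promoting complex, at 1.79 ± 0.17 (adjusted p = 2.6e-06), HJURP, a centromere chaperone, at 1.85 ± 0.20 (adjusted p = 8.7e-06), and BIRC5, survivin, at 1.63 ± 0.18 (adjusted p = 9.2e-06). ESPL1, the separase, and FOXM1, a transcription factor of mitosis genes, rose by 1.15 and 1.36. At day 1 the 1 call was KIF20A, a kinesin of cytokinesis, at −0.68 ± 0.15 (adjusted p = 0.0056), a call lost without D1 replicate 2, D1+ TGF-β replicate 1 or D1+ TGF-β replicate 2.

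Set on 1 scale, the median log2 level of the 35 members relative to the D1 mean was −1.52, −1.57 and −1.62 in the D20 flasks and −1.16, −1.20 and −0.77 in the D20+ TGF-β flasks. The same median of the 29 mitosis genes was −2.58, −2.76 and −2.84 at D20 and −1.47, −1.73 and −0.90 at D20+ TGF-β. In both groups of genes the treated flasks lay above the untreated ones and replicate 3 lay highest. Whether the makeup of that flask has a part in these values was not tested.

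**Figure D4:**
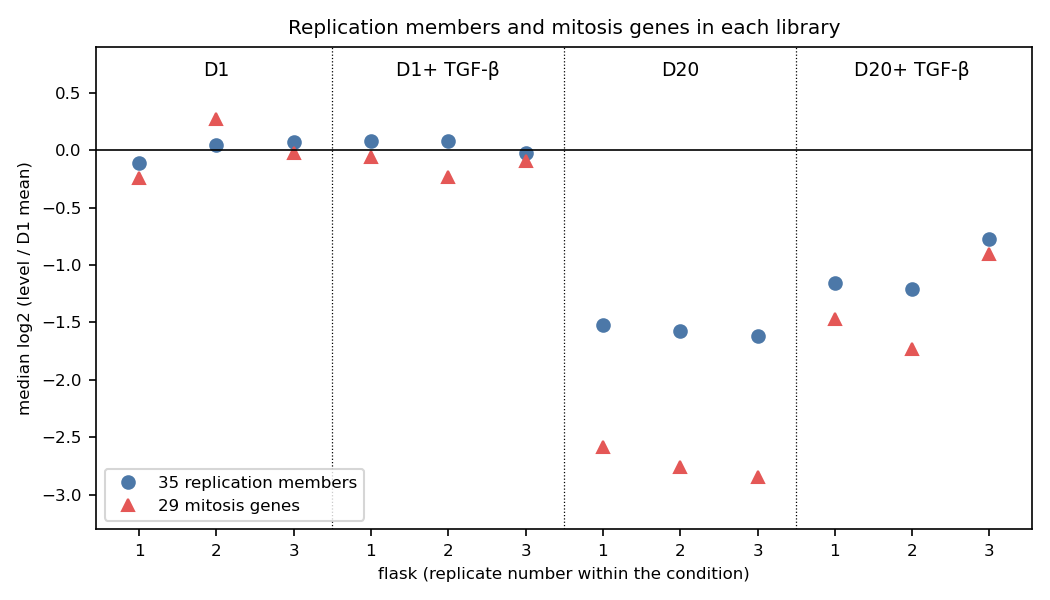
Median over the 35 tested replication members (circles) and over the 29 mitosis genes (triangles) of the log2 level relative to the D1 mean, in each of the 12 flasks. Day 1 flasks lie near 0 with or without TGF-β, D20 flasks lie lowest, D20+ TGF-β flasks lie between, and the mitosis genes lie below the replication members in every day 20 flask.

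The promoters of the mitosis genes held other words than those of the replication members. E2F words were in 3 of 24 mitosis genes with a RefSeq promoter (12.5%), against 22 of 39 members (56.4%). The cell cycle homology region (CHR) words TTTGAA and TTCGAA, bound in mitosis genes by the DREAM complex, were in 17 of the 24 mitosis genes (70.8%), in 3 of the 39 members (7.69%), namely DUT, MCM6 and RRM1, and in 15.6% of the tested genes. CCAAT boxes were in 75.0% of the mitosis genes, 56.4% of the members and 43.7% of the tested genes. The median log2 fold change in D20 vs D1 was −1.59 for the 19 tested members with a word and −1.37 for the 13 without, and in D20+ TGF-β vs D20 it was 0.49 and 0.53. MCM10 and RRM2, with the deepest falls of the tested members, were among those without a word, and PCNA and DUT, with small ones, among those with one. Other members went the other way. CDC6, GINS2 and RFC3, at −2.57, −2.27 and −2.11, had a word, and PRIM2, with the smallest fall, had none. Whether the words have a part in these changes was not tested.

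**Figure D5:**
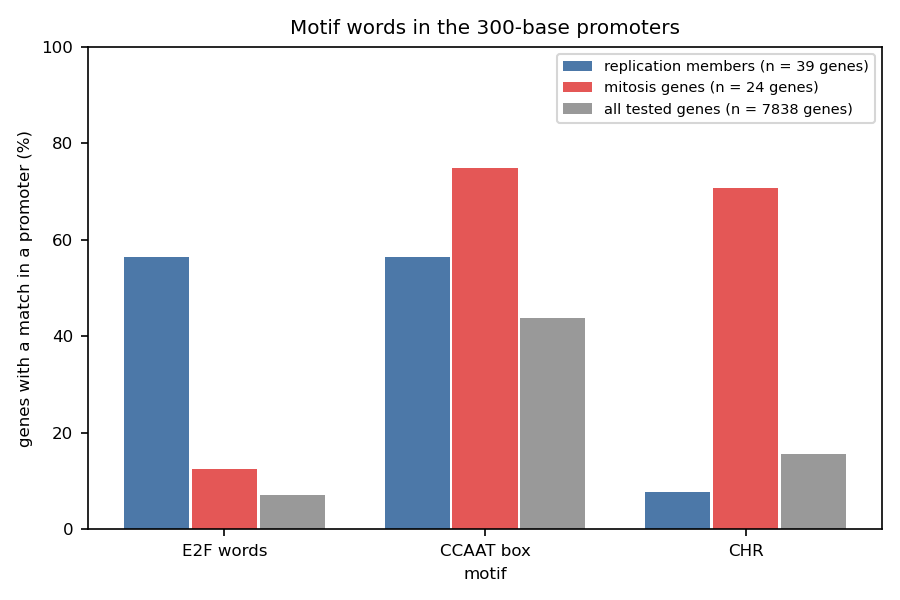
Share of genes, in percent, with a match of the E2F words, the CCAAT box or the CHR words in a 300-base RefSeq promoter, for the replication members, the mitosis genes and all tested genes. E2F words are most frequent in the replication members and CHR words in the mitosis genes.

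On GRCh37, from the GENCODE annotation, the genes whose values the account turns on lie as follows. MCM7 is at chromosome 7, 99689856 to 99699563, MCM2 at chromosome 3, 127317253 to 127341279, MCM10 at chromosome 10, 13203558 to 13253110 and CDC6 at chromosome 17, 38444131 to 38460909. RRM2 is at chromosome 2, 10260825 to 10351851, TYMS at chromosome 18, 657653 to 673578, DUT at chromosome 15, 48623208 to 48635570, FEN1 at chromosome 11, 61560383 to 61564710 and CCNE1 at chromosome 19, 30302898 to 30315219. An annotated exon on the opposite strand overlapped 13 of the 44 members. An annotated pseudogene copy, found by its name, was present for 8, a count that leaves out PRIM2BP.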

How the data were processed

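Total RNA from the 12 flasks was sequenced after directional library preparation, each library on 4 lanes. The authors trimmed reads with Trimmomatic, mapped them to hg19 with Rsubread and deposited whole-number counts per gene and lane, together with a log2 table from voom for 9412 genes. The counting program and its use of strand are not given in the sources used here.

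The 4 lanes of a library were summed. A level of 10 cpm in 6 or more libraries was required, which kept 9490 of the 20434 genes with a count, and 31 of the 44 members were also in the deposited log2 table. Counts were fitted in edgeR 4.0.16 (R 4.3.3) by the quasi-likelihood test with TMM factors and group means over all 12 libraries. Adjusted p-values are Benjamini-Hochberg values over all tested genes, and the threshold was 0.01. The common biological coefficient of variation was 9.35%. The flasks of a day 20 condition share a founding flask, so p-values measure the spread between flasks, which is partly technical. They do not measure the spread between founding flasks. In D20+ TGF-β vs D20 and in the interaction term, TGF-β and founding flask cannot be told apart. The tests were checked on simulated counts. DESeq2 1.42.0, limma 3.58.1, other filters and scalings, a replicate block and the omission of each library were alternatives. Library totals of 8674488 to 18286197 counts limit the precision of the lowest members.

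The members, the other gene lists and the promoter words were chosen with earlier results of these data known. Values in every library are given for the tested members with the largest fold changes and the highest level in each role group and for textbook genes of each step. From each other list, the genes with the smallest adjusted p are named. CDT1, GMNN, TK1, DUT, CCNE1 and the CDK inhibitors are further exceptions, and the first 5 were chosen after their values were seen. Gene positions are from GENCODE on GRCh37, which is the build hg19, and promoters are from RefSeq on GRCh38.p14.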

Additional observations from a re-analysis of the deposited data

Results flagged for a closer look

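The response to TGF-β differed between day 20 and day 1, by an interaction term in edgeR's quasi-likelihood test, for 3 of the 35 tested replication members. The response of TYMS was higher at day 20 by 0.79 on the log2 scale, with flasks lower than untreated ones on day 1 and higher on day 20 in 3 of 3 flasks each. The response of MCM7 was higher by 0.94 and that of MCM2 by 0.83. TYMS and MCM7 passed the threshold in all fits that were run, and MCM2 did not. With 3 flasks in each condition, no outlier test of single genes was made.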

How the results depend on the processing

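Of 115 log2 fold changes with an adjusted p given for single genes, 78 kept their direction and their side of the threshold under every alternative. Reversed values, none of them called, were those of CDKN2A in D20 vs D1 (−0.0035) and of MCM7 in D1+ TGF-β vs D1 (0.011), both without D1 replicate 2, and of MCM6 in D20+ TGF-β vs D20 (−0.025) without D20+ TGF-β replicate 3. Over the omissions of single libraries the highest values were 0.41 for CDKN2A and 0.31 for MCM6, and MCM7 ran from −0.079 to 0.011. In D1+ TGF-β vs D1, the number of members called was 5 with the 48 lanes as samples in limma-voom, 2 at an adjusted p under 0.05, and 0 to 1 when single libraries were left out. In D20+ TGF-β vs D20 it was 21 with the 48 lanes, 7 with only the libraries compared, 22 at an adjusted p under 0.05 and 6 to 15 without single libraries. For the difference of the responses it was 5 with no composition factor, 7 with DESeq2, 15 with the 48 lanes, 8 without a gene filter, 12 at an adjusted p under 0.05 and 2 to 5 without single libraries. Without single libraries it was 33 to 35 in D20 vs D1 and 32 to 34 between treated flasks of day 20 and day 1. Lanes repeat 1 library and are not replicates, and the no-filter fit tested more members; other causes were not tested. Correlations of deviations between flasks of the same number ran from −0.22 to 0.32. Flasks of different numbers were not correlated, so this range cannot show whether the numbers pair the samples. With the replicate block, 35 members were called in D20 vs D1, 33 between the treated flasks of day 20 and day 1, 12 with TGF-β at day 20, 1 with TGF-β at day 1, and 2 for the difference, from which MCM2 was lost.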
